A study of Mus musculus with 9 samples.

Results

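The clustered protocadherins were examined isoform by isoform in RNA-seq of whole mouse brain. Members were taken by symbol, as every alpha, beta, gamma A and gamma B isoform and the C-type isoforms Pcdhac1, Pcdhac2, Pcdhgc3, Pcdhgc4 and Pcdhgc5. The rule found 58 of 49315 gene IDs, of which 12 were alpha, 22 beta, 12 gamma A, 7 gamma B and 5 C-type isoforms. The 58 IDs carry 57 different symbols, since a pair of neighbouring alpha genes is named Pcdha11 in the annotation used. They are called Pcdha11 (upstream) and Pcdha11 (downstream) here, and RefSeq names the upstream one Pcdha10. The family was chosen by a measured value of these same libraries, the higher level of Pcdhb9 in old brain, so the age differences below describe these mice and are no independent evidence that the family changes.

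The young group held 5 brains from mice aged 3 months by the labels, and the study's text gives 3 or 4 months. The old group held 4 brains, numbered 1, 3, 4 and 5, from mice aged 33 months. All mice were wild-type C57BL/6J males without treatment, each library came from 1 animal, and the RNA was selected for polyA tails with ERCC spike-ins added. The comparison asks how transcript levels differ between old and young brain.

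Clustered protocadherins are cell-surface adhesion proteins of the cadherin superfamily that bind identical isoforms on a neighbouring membrane. In a single neuron a small set of alternate isoforms is switched on by promoter choice, in which the factor CTCF, cohesin loops and DNA methylation take part, while C-type isoforms are expressed more uniformly. The resulting combination labels the neuron and lets sister branches of its own arbor recognise and avoid each other. Each alpha or gamma isoform has its own first exon, which encodes the extracellular and transmembrane parts, spliced to constant exons shared by its subcluster, whereas each beta isoform is encoded by a single exon of its own.

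The genes lie in 1 array on chromosome 18 of the GRCm38 mouse genome, from 36930184 to 37841873 (911.69 kb), in the order alpha, beta, gamma. All stand on the forward strand. In the alpha subcluster Pcdhac1 and Pcdhac2 follow the alternate isoforms. In the gamma subcluster the A and B isoforms are interleaved, and Pcdhgc3, Pcdhgc4 and Pcdhgc5 come last. Reads in the shared constant exons fall to several genes at once, so the counts of alpha and gamma members rest mainly on their first exons. Some members, such as Pcdhgb4, also have unshared bases in other exons. Stretches of 150 bases shared with the transcripts of other genes made up at most 6.02% of any member's first exon.

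Library totals ranged from 14229259 to 21150439 reads assigned to genes. Of the 58 members 57 passed the filter on low counts. Pcdhb1, the first beta isoform, did not, with 0 to 14 reads per library. The markers that define brain tissue were present, and none of the neuron, astrocyte or oligodendrocyte markers was at 0 in any library. Summed neuron marker levels were 5991 to 6493 CPM (counts scaled to library size) in young and 5880 to 6480 CPM in old brains. In bulk tissue fewer cells of a type and less RNA per cell cannot be told apart.

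In young brain the C-type isoforms had the highest median level relative to exon length, and the alpha and beta isoforms the lowest medians. Levels were compared as CPM per kb of exon that no other gene on either strand shares. That leaves out Pcdha4 and Pcdhga10 because a non-member overlaps most or all of their first exon. Where a gene on the other strand overlaps a member, the value assumes that reads over both were left uncounted. The medians were 13.3 CPM per kb over 5 C-type, 4.95 over 11 gamma A, 2.85 over 7 gamma B, 1.64 over 11 alpha and 1.45 over 22 beta isoforms. Within groups the levels differed by several fold between isoforms.

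The highest level of all members on this scale was that of Pcdhgc3, the C-type isoform known to bind Axin1, at 21.4 ± 0.998 CPM per kb (SD, n = 5). Pcdhgc5, a synaptic C-type isoform, followed at 16.5 ± 2.19 CPM per kb, and Pcdhac2, the isoform required for spacing of serotonergic axons, at 13.3 ± 0.735. Pcdhgc4, the C-type isoform needed for survival of interneurons, had 6.31 ± 0.465 CPM per kb and Pcdhac1 had 1.56 ± 0.1003. The mean ± SD ranges of Pcdhac2 and Pcdhgc5 did not overlap, nor did those of Pcdhgc5 and Pcdhgc3. The rank of Pcdhgc3 rests on its length of 1821 bases, against 3380 when only genes on its own strand are left out. In CPM without a length Pcdhgc5 was higher, with a young mean of 75.9 against 39.0 for Pcdhgc3.

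Among alternate isoforms Pcdhga11 was highest on this scale, at 11.2 ± 1.09 CPM per kb, and Pcdhga1 was the lowest gamma A isoform compared, at 1.73 ± 0.539. Gm26672 on the other strand leaves Pcdhga11 1256 bases, against 2637 when only genes on its own strand are left out. The rank of Pcdhga11 rests on that choice. The gamma B isoforms ran from 1.6003 ± 0.161 CPM per kb for Pcdhgb5 to 8.28 ± 0.186 for Pcdhgb6. In the beta group Pcdhb17 at 3.74 ± 0.275 and Pcdhb9 at 3.68 ± 0.263 CPM per kb were not apart beyond their spread. Pcdha12 was the highest alpha isoform at 4.16 ± 0.599 CPM per kb and Pcdha8 the lowest at 0.391 ± 0.113. The rank of Pcdha8 rests on the same choice, since Pcdha11 (downstream) had 1268 bases against 4606. Its young mean of 0.712 CPM was below the 0.968 CPM of Pcdha8.

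**Figure D1:**
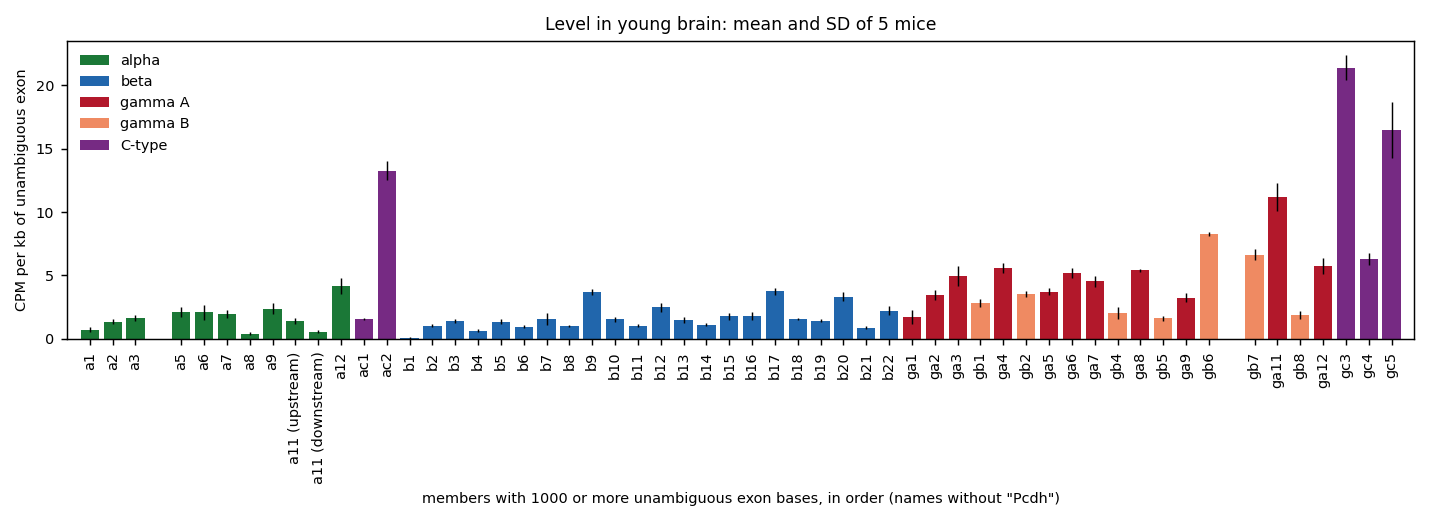
Level of each clustered protocadherin in young brain, in CPM per kb of exon that belongs to no other gene on either strand. The vertical axis starts at 0, and members with 1000 or more such bases are shown in their order along the array. Bars are means and lines SDs of 5 mice. Pcdhgc3 reaches 21.4, Pcdhgc5 16.5 and Pcdhac2 13.3, while Pcdhb17, the highest beta isoform, is at 3.74.

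Between the ages the family did not move as one. In old brain 11 of the 13 beta isoforms from Pcdhb2 to Pcdhb14 and 7 of 12 gamma A isoforms were higher. The beta isoforms from Pcdhb15 to Pcdhb22, nearly all alpha isoforms and 4 of the 5 C-type isoforms did not pass the test. The log2 fold changes of the C-type isoforms were all below 0. With edgeR's quasi-likelihood test and Benjamini-Hochberg adjustment over all 18492 genes tested, 21 members were higher in old brain at an adjusted p under 0.05 and Pcdhac2 alone was lower. The other 35 did not pass. Over all genes tested 6.09% were called higher and 4.89% lower by that rule. With an absolute log2 fold change over 0.58 in addition, 15 members were higher and 0 lower, against 2.13% and 0.373% of all genes. All 4 old brains lay above all 5 young ones for 18 members, where 6.5% of all genes did so, and below for Pcdhac1 only, where 6.08% did so. The log2 fold change was above 0 for 43 members and below 0 for 14, where 50% of all genes were above.

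By group the counts differed. Of 21 tested beta isoforms 11 were higher, with a median log2 fold change of 0.61 and a range from -0.21 to 1.28. Of 12 gamma A isoforms 7 were higher (median 0.43, from 0.02 to 0.79), and of 7 gamma B isoforms 2 were (median 0.32, from 0.13 to 0.41). Of 12 alpha isoforms only Pcdha8 was called (median 0.08, from -0.36 to 0.96). All 5 C-type values were below 0 (median -0.17, from -0.39 to -0.04). The median over all tested genes was -9.21e-05. Whether the groups differ from each other in their age difference was not tested.

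**Figure D2:**
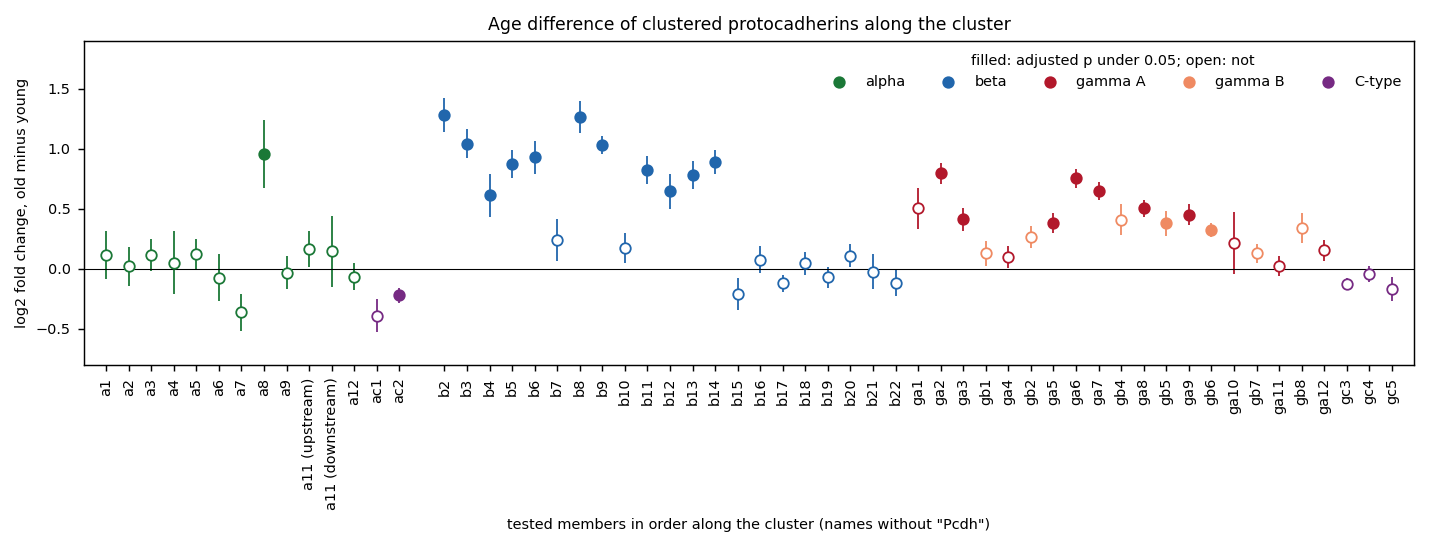
Log2 fold change of old against young brain (points, with SE lines, from the edgeR fit) for the 57 tested members in their order along the array, coloured by group. Filled points have an adjusted p under 0.05. The beta points from Pcdhb2 to Pcdhb14 lie between 0.17 and 1.28 and those from Pcdhb15 to Pcdhb22 between -0.21 and 0.11.

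The Pcdhb2 to Pcdhb14 run and its complement were marked out after the values were seen and are given as a description. Summed over the 13 isoforms of the run, young brains had 63.5, 65.0, 62.4, 70.8 and 69.3 CPM and old brains 114.4, 127.0, 117.9 and 122.6 CPM. The sum over the 8 isoforms from Pcdhb15 to Pcdhb22 was 79.0, 82.5, 71.7, 83.1 and 78.9 CPM in young and 73.3, 79.1, 77.1 and 79.4 CPM in old brains. The ages were separate in the first sum and overlapped in the second. The run therefore supplied 44.0% to 46.7% of all beta CPM in the young and 60.3% to 61.3% in the old brains.

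Of the 13 isoforms in the run 11 were called higher, and in 10 the ages did not overlap. Values per mouse below are CPM after TMM scaling, for young brains 1 to 5 and then for old brains 1, 3, 4 and 5. The beta isoforms are recognition molecules without a constant cytoplasmic domain, and individual roles are known for few of them.

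Pcdhb2 stood at 2.72, 3.37, 2.82, 2.75 and 2.84 CPM in young and 5.37, 8.67, 7.39 and 6.93 CPM in old brains. Every old brain was above every young one, and the log2 fold change of 1.28 ± 0.14 (SE, adjusted p = 3.7e-05) was the highest of the family. For Pcdhb8 the young brains gave 3.29, 3.21, 3.64, 3.43 and 4.02 CPM, and the old gave 8.29, 8.74, 10.2 and 6.46 CPM. The ages were again separate, by 1.26 ± 0.13 on the log2 scale (adjusted p = 2.1e-05). Pcdhb3 ran at 4.39, 5.92, 5.02, 5.60 and 5.93 CPM in young brains and at 8.61, 11.9, 11.6 and 12.3 CPM in old ones. Old brain 1 was the lowest of its group and still above all young brains (log2 fold change 1.04 ± 0.12, adjusted p = 4.8e-05). Pcdhb9, the most abundant isoform of the run per kb in young brain, had 11.8, 10.01, 10.9, 11.9 and 11.7 CPM in the young and 24.4, 24.1, 21.01 and 22.8 CPM in the old. Its spread within each age was small beside the gap, and its SE of 0.07 on a log2 fold change of 1.03 was the smallest among the beta isoforms of the run (adjusted p = 5.7e-07).

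Pcdhb14, the last isoform of the run, had 8.47, 10.01, 10.03, 10.3 and 10.01 CPM in young and 16.1, 22.4, 16.5 and 17.6 CPM in old brains. Every old brain was above every young one (log2 fold change 0.89 ± 0.10, adjusted p = 3.3e-05). Pcdhb6 was at 3.19, 3.65, 3.09, 3.53 and 4.32 CPM in young brains and at 6.75, 6.42, 5.69 and 8.28 CPM in old ones. Its log2 fold change was 0.93 ± 0.14 with no overlap (adjusted p = 0.00038). Pcdhb5 gave 4.91, 4.54, 4.33, 5.84 and 4.32 CPM in young against 8.98, 8.46, 7.93 and 9.98 CPM in old brains. The ages were separate by 0.87 ± 0.12 on the log2 scale (adjusted p = 0.00015). In Pcdhb11 the young values were 4.96, 4.98, 3.50, 4.64 and 4.88 CPM and the old values 7.65, 7.33, 8.70 and 8.92 CPM. Young brain 3 was apart from the other young brains on the low side, and the lowest old value was above the highest young one (log2 fold change 0.82 ± 0.12, adjusted p = 0.00031).

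Pcdhb13 was at 6.85, 4.98, 5.22, 5.65 and 4.51 CPM in young and at 9.99, 9.38, 9.90 and 8.28 CPM in old brains. The ages did not overlap (log2 fold change 0.78 ± 0.12, adjusted p = 0.00047). Pcdhb12 had 2.56, 2.43, 2.41, 3.24 and 3.03 CPM in young against 3.98, 4.94, 4.21 and 4.11 CPM in old brains, a log2 fold change of 0.65 ± 0.14 (adjusted p = 0.0079) with no overlap. An antisense gene, Gm37446, overlaps Pcdhb12 and leaves it 1107 bases of its own. That gene was also higher in old brain, with 0.242 to 0.387 CPM in the young, 0.637 to 1.06 CPM in the old and a log2 fold change of 1.46 ± 0.31 (adjusted p = 0.0054). Reads where both lie cannot be assigned to either without strand. Pcdhb4 was the lowest of the run per kb, at 2.35, 2.60, 1.99, 3.19 and 1.98 CPM in young and 2.92, 3.597, 4.71 and 3.76 CPM in old brains. The ages overlapped there in old brain 1 and young brain 4 (log2 fold change 0.61 ± 0.18, adjusted p = 0.034). The call was lost on leaving out any of young brains 1, 3 and 5 or old brains 3, 4 and 5, with a log2 fold change of 0.48 without old brain 4.

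Pcdhb7 and Pcdhb10, both inside the run, did not pass the test. Pcdhb7, between Pcdhb6 and Pcdhb8, ranged from 4.13 to 7.78 CPM in young and from 5.36 to 7.57 CPM in old brains, with a log2 fold change of 0.24 ± 0.18 (adjusted p = 0.43). Its young brains were the most spread of any isoform in the run relative to its mean. Pcdhb10, between Pcdhb9 and Pcdhb11, ranged from 3.87 to 4.95 CPM in young and from 4.30 to 5.69 CPM in old brains, with a log2 fold change of 0.17 ± 0.13 (adjusted p = 0.42). So the run was not unbroken, and an isoform with its gene next to those called could lie within the spread of the young brains.

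Past Pcdhb14 the age difference was no longer seen. None of the 8 isoforms from Pcdhb15 to Pcdhb22 was called, their adjusted p values lay between 0.29 and 0.94, and their log2 fold changes between -0.21 and 0.11. Pcdhb17, the highest beta isoform per kb, had 16.1, 18.4, 16.01, 18.6 and 17.98 CPM in young and 15.7, 15.9, 16.7 and 15.8 CPM in old brains. The ages overlapped at the low end of the young brains, and the log2 fold change was -0.12 ± 0.07 (adjusted p = 0.29). Pcdhb14 and Pcdhb15 are neighbours, at 37447656 to 37456350 and 37473540 to 37476340, and their log2 fold changes were 0.89 and -0.21. Pcdhb15 had 3.71 to 5.44 CPM in young and 3.87 to 4.73 CPM in old brains.

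Level did not separate these stretches. Young levels ran from 0.651 to 3.68 CPM per kb in Pcdhb2 to Pcdhb14 and from 0.881 to 3.74 in Pcdhb15 to Pcdhb22, with medians of 1.35 and 1.78. The GC content of the exon was 39.1% to 49.0% in the first and 41.2% to 48.3% in the second stretch, with medians of 47.1% and 43.7%. The number of CpG dinucleotides was 1.16 to 2.54 and 1.32 to 2.71 per 100 bases, with medians of 2.06 and 2.02. Across the 21 tested beta isoforms Spearman's rho of the log2 fold change was -0.78 with order along the subcluster, 0.35 with GC content and -0.09 with CpG density. These are correlations across genes that share the same libraries.

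**Figure D3:**
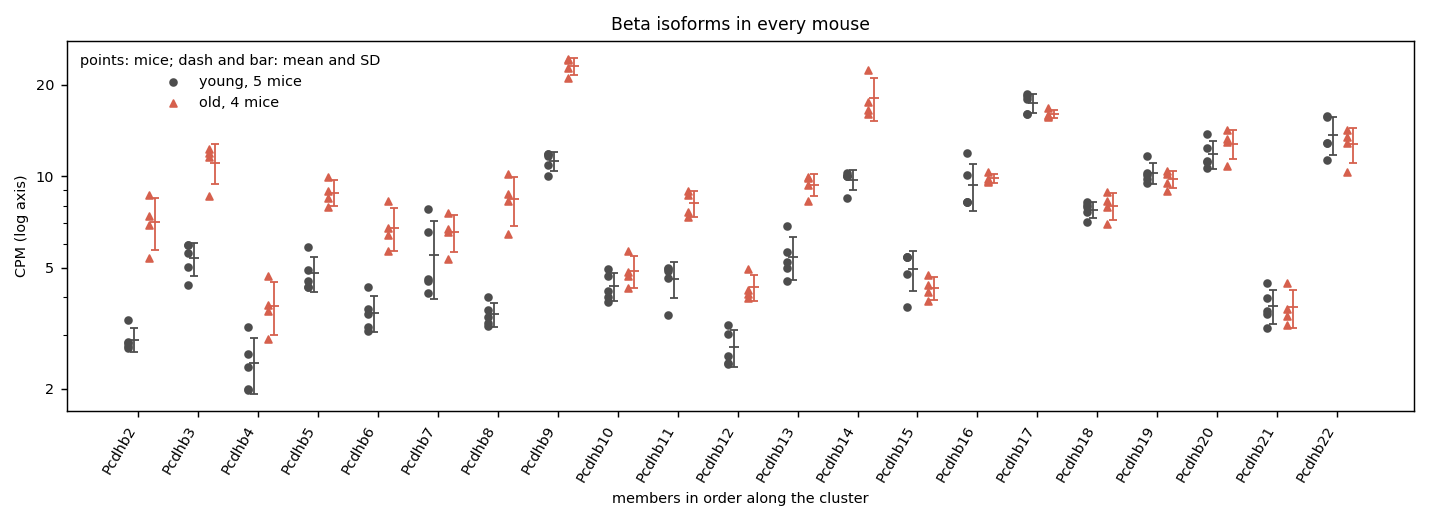
CPM of the 21 tested beta isoforms in every mouse (vertical log axis), in their order along the subcluster. Circles are 5 young and triangles 4 old brains, and the dash and bar beside them give the mean and SD. Triangles lie wholly above circles for 10 isoforms, all between Pcdhb2 and Pcdhb14, and overlap them for each isoform from Pcdhb15 on.

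The gamma A isoforms were the other group with several higher values. Summed over Pcdhga1 to Pcdhga9, young brains had 93.1, 93.2, 89.3, 92.9 and 94.6 CPM and old brains 133.3, 137.3, 129.9 and 135.0 CPM. Summed over Pcdhga10, Pcdhga11 and Pcdhga12, they had 38.5, 45.9, 38.2, 36.7 and 35.9 CPM and 46.5, 38.4, 44.0 and 39.3 CPM. The ages were separate in the first sum and overlapped in the second. These stretches too were set after the values were seen. All 7 gamma A calls were among the 9 isoforms of the first stretch, where Pcdhga1 and Pcdhga4 did not pass. Gamma isoforms also signal through their shared cytoplasmic domain, which inhibits the kinases FAK and PYK2.

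Pcdhga2 had 8.57, 8.30, 7.83, 9.81 and 10.01 CPM in young and 16.4, 16.6, 14.3 and 14.7 CPM in old brains. It had the highest log2 fold change of the gamma subcluster, 0.79 ± 0.09, with no overlap (adjusted p = 3.7e-05). Pcdhga6 was at 14.7, 13.001, 13.5, 14.6 and 12.05 CPM in young and at 25.3, 23.6, 19.97 and 23.01 CPM in old brains. The ages were separate by a log2 fold change of 0.75 ± 0.08 (adjusted p = 2.1e-05). Pcdhga7, which follows it on the array, gave 12.4, 10.6, 10.3, 12.1 and 12.8 CPM in young and 17.5, 18.9, 19.3 and 17.4 CPM in old brains. Its log2 fold change was 0.65 ± 0.08, again with no overlap (adjusted p = 6.4e-05). For Pcdhga8 the young brains were within 10.9 to 11.5 CPM (11.5, 10.9, 11.5, 11.5 and 11.1) and the old brains at 14.98, 16.6, 17.2 and 15.4 CPM. The young group was the tightest of the gamma A isoforms, and the log2 fold change was 0.50 ± 0.07 (adjusted p = 0.00025).

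Smaller differences were called for a further 3 gamma A isoforms. Pcdhga9 stood at 10.98, 10.7, 9.62, 12.9 and 11.9 CPM in young and 15.2, 16.3, 14.1 and 16.1 CPM in old brains (log2 fold change 0.45 ± 0.09, adjusted p = 0.0032). Pcdhga3 stood at 11.9, 16.04, 11.5, 11.3 and 13.6 CPM in young brains and at 16.6, 16.6, 16.6 and 18.5 CPM in old ones (0.41 ± 0.09, adjusted p = 0.0098). Pcdhga5 stood at 9.77, 9.35, 9.07, 8.50 and 10.4 CPM in young and 11.6, 13.2, 11.8 and 12.4 CPM in old brains (0.38 ± 0.08, adjusted p = 0.0074). None of the 3 overlapped between the ages, although young brain 2 came close to the old brains in Pcdhga3.

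Pcdhga1, the first gamma A isoform and the lowest per kb of those compared, had 5.33, 4.54, 7.35, 3.48 and 3.89 CPM in young brains. Old brains had 7.28, 6.21, 6.89 and 7.16 CPM. Young brain 3 lay above all old brains and the rest of the young below them. The log2 fold change of 0.50 ± 0.17 had an adjusted p of 0.074, and of 0.0068 without young brain 3 (log2 fold change 0.68). Pcdhga11, the highest gamma A isoform per kb, was at 14.2, 16.1, 14.3, 12.7 and 12.9 CPM in young and at 15.9, 13.8, 13.6 and 13.5 CPM in old brains. The ages overlapped almost wholly, with a log2 fold change of 0.02 ± 0.08 (adjusted p = 0.91).

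The gamma B isoforms, interleaved with these, had log2 fold changes between 0.13 and 0.41. Pcdhgb6 was at 21.8, 20.8, 21.2, 20.7 and 21.6 CPM in young and at 27.1, 23.6, 28.1 and 27.2 CPM in old brains, the only gamma B isoform without overlap (0.32 ± 0.06, adjusted p = 0.0023). Pcdhgb5 was at 6.74, 8.41, 6.80, 7.92 and 7.04 CPM in young and at 8.18, 10.4, 10.1 and 9.98 CPM in old brains. Old brain 1 lay within its young range, the log2 fold change was 0.38 ± 0.10 (adjusted p = 0.023), and leaving out any of young brains 1, 3 and 5 or old brains 3, 4 and 5 lost the call, with a log2 fold change of 0.34 to 0.37. Pcdhgb4 was just outside the threshold, at 6.12 to 10.1 CPM in young and 9.22 to 10.3 CPM in old brains (0.41 ± 0.13, adjusted p = 0.054). Between the called Pcdhga3 and Pcdhga5 stand Pcdhgb1, Pcdhga4 and Pcdhgb2, which did not pass, with log2 fold changes of 0.13 ± 0.10, 0.10 ± 0.09 and 0.26 ± 0.09 (adjusted p = 0.47, 0.55 and 0.071). Whether they differ from their called neighbours was not tested. Across the 19 gamma A and gamma B isoforms Spearman's rho of the log2 fold change was -0.40 with order, -0.32 with GC content and -0.55 with CpG density of the first exon.

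**Figure D4:**
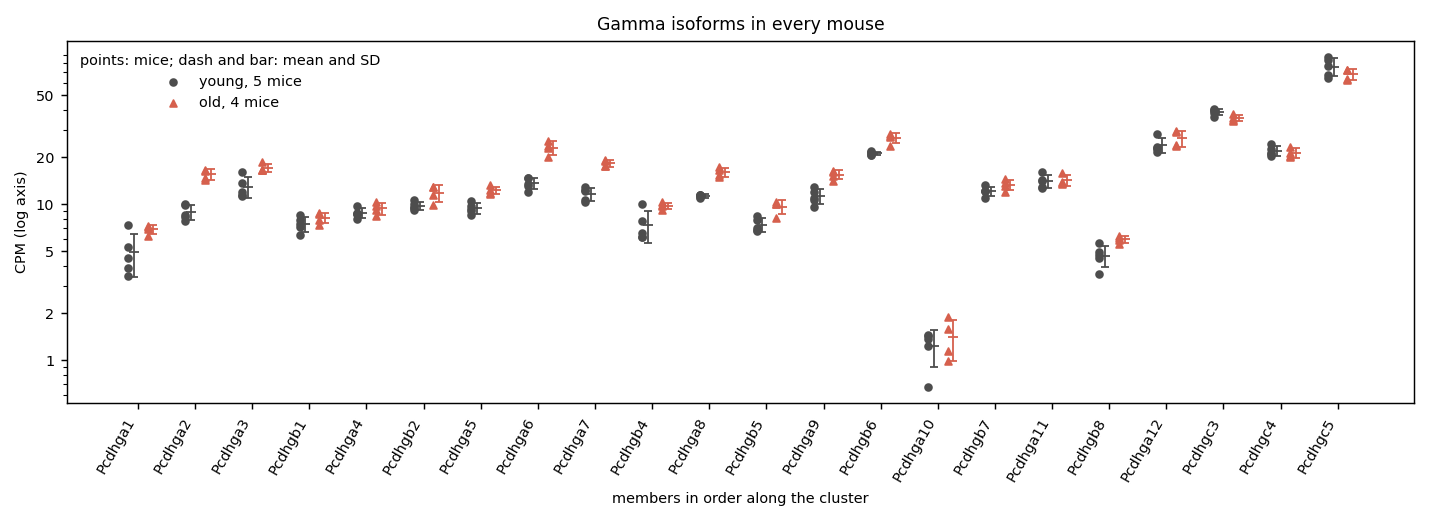
CPM of the 22 gamma subcluster members in every mouse (vertical log axis), in their order along the subcluster. Circles are 5 young and triangles 4 old brains, and the dash and bar give the mean and SD. The ages are apart in Pcdhga2, Pcdhga3, Pcdhga5, Pcdhga6, Pcdhga7, Pcdhga8, Pcdhga9 and Pcdhgb6. They overlap in the other members, including the 3 C-type isoforms on the right.

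The alpha isoforms, which share a constant domain that binds the WAVE complex and PYK2, had 1 call among 12. Their summed level was 43.5, 45.9, 39.4, 43.4 and 40.9 CPM in young and 41.3, 45.4, 42.5 and 45.2 CPM in old brains. Of the 12 isoforms 8 had a log2 fold change above 0 and 4 below, and the ages overlapped in each. Across them Spearman's rho of the log2 fold change was 0.07 with order, -0.53 with GC content and -0.41 with CpG density of the first exon. The SEs of their log2 fold changes ran from 0.11 to 0.30.

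Pcdha8 alone was called, and it was the least abundant alpha isoform per kb. It had 0.888, 0.830, 0.619, 1.21 and 1.30 CPM in young and 1.12, 3.03, 1.97 and 1.64 CPM in old brains, from 9 to 43 reads per library. The ages overlapped in old brain 1, and the log2 fold change was 0.96 ± 0.28 (adjusted p = 0.036). The call was lost on leaving out any of young brains 1, 2 and 3 or old brains 3, 4 and 5, and without old brain 3, the highest, the log2 fold change was 0.68 (adjusted p = 0.13). Pcdha12, the most abundant alpha isoform per kb, had 7.47, 9.74, 8.87, 7.49 and 6.92 CPM in young and 7.17, 8.60, 7.22 and 7.98 CPM in old brains. Its ages overlapped wholly (log2 fold change -0.07 ± 0.11, adjusted p = 0.76). Pcdha7 had the lowest value of the group, -0.36 ± 0.15, which did not pass (adjusted p = 0.15).

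The C-type isoforms were the only group with every value below 0. Summed over the 5, young brains had 190.6, 189.7, 175.2, 180.2 and 169.5 CPM and old brains 155.7, 172.2, 153.1 and 168.3 CPM, with an overlap at young brain 5 and old brain 3. Their share of the CPM of all members was 30.4% to 32.9% in the young and 23.4% to 25.2% in the old brains, while that of the beta isoforms was 24.6% to 26.7% and 29.0% to 30.3%. The CPM of all members, the divisor of these shares, was 542.6 to 595.5 in young and 647.5 to 684.7 in old brains. The C-type share would therefore be lower in old brain even with an unchanged C-type sum.

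Pcdhac2 had 42.4, 40.9, 40.5, 40.7 and 36.4 CPM in young and 33.3, 38.9, 32.5 and 33.7 CPM in old brains. Old brain 3 lay within the young range, and Pcdhac2 fell by 0.22 on the log2 scale (SE 0.06, adjusted p = 0.023). The call was lost without young brain 1, old brain 1, old brain 4 or old brain 5, with adjusted p values of 0.064 to 0.072. The 3 serotonergic neuron markers Tph2, Slc6a4 and Fev summed to 10.1 to 24.8 CPM in young and 2.93 to 18.6 CPM in old brains. None of them was called, and their part in the Pcdhac2 value was not tested.

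Pcdhac1 was the only member with all old brains below all young ones, at 4.18, 3.71, 4.33, 3.82 and 3.95 CPM in young and 2.60, 3.46, 3.06 and 3.11 CPM in old brains. Its log2 fold change of -0.39 ± 0.14 did not pass (adjusted p = 0.076). Pcdhgc3 had 39.6, 36.2, 40.9, 38.3 and 39.9 CPM in young and 35.9, 34.3, 34.4 and 37.7 CPM in old brains, overlapping at young brain 2 (-0.13 ± 0.05, adjusted p = 0.12). Pcdhgc4 had 20.4, 21.4, 22.5, 20.9 and 24.5 CPM in young and 20.1, 23.3, 20.5 and 21.3 CPM in old brains (-0.04 ± 0.07, adjusted p = 0.74). The ages were mixed in that isoform. Pcdhgc5 had 84.0, 87.5, 66.9, 76.5 and 64.7 CPM in young and 63.8, 72.2, 62.6 and 72.4 CPM in old brains, where the young group alone spread over most of the range (-0.17 ± 0.10, adjusted p = 0.32).

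**Figure D5:**
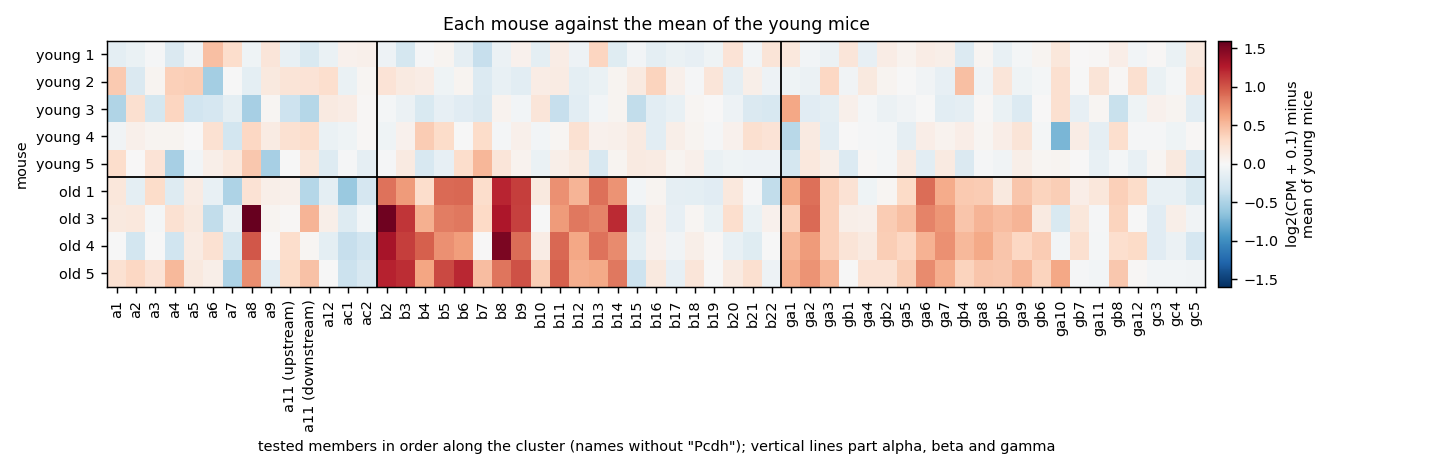
Log2(CPM + 0.1) of each of 57 members minus the mean of the 5 young brains, for every mouse (rows) with members in their order along the array (columns). Red is above and blue below the young mean. The 4 old brains are red over Pcdhb2 to Pcdhb6, Pcdhb8, Pcdhb9 and Pcdhb11 to Pcdhb14 and over Pcdhga2, Pcdhga6 and Pcdhga7, and pale over Pcdhb15 to Pcdhb22.

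Genes around the array were compared in the same fit. Of the 10 tested genes nearest to it on the alpha side, E230025N22Rik alone was called (log2 fold change 1.46 ± 0.31, adjusted p = 0.0054), from 0.221 to 0.679 CPM in young and 1.06 to 1.31 CPM in old brains. Of 10 on the gamma side, Rell2 fell by 0.16 and Rnf14 by 0.14 on the log2 scale (adjusted p = 0.025 and 0.018). Of 10 tested non-members inside the array 2 were higher, Gm37446 and the lincRNA 3222401L13Rik, which ends just before Pcdhga1. The latter had 1.58 to 2.87 CPM in young and 3.67 to 4.99 CPM in old brains (0.82 ± 0.17, adjusted p = 0.0052). Taf7, a coding gene between the beta and gamma subclusters that encodes a TFIID subunit, gave -0.05 ± 0.09 on the log2 scale (adjusted p = 0.76).

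Among 26 genes for control of the locus and its chromatin 2 were higher and 1 lower, shares near the 6.09% and 4.89% of all genes, so the counts show nothing particular to that list. The cohesin subunit Smc3 was higher by 0.17 ± 0.04 on the log2 scale (adjusted p = 0.014) and the cohesin loader Nipbl by 0.21 ± 0.04 (adjusted p = 0.0052). The 5-methylcytosine dioxygenase Tet1 fell by 0.43, with 19.95 to 24.2 CPM in young and 15.4 to 18.3 CPM in old brains (adjusted p = 0.0010). The median of the list was 0.06. Of 20 signalling and processing partners 1 was higher and 1 lower, again near the shares of all genes. These were Cyfip1, a WAVE complex subunit (0.18 ± 0.04, adjusted p = 0.0050), and Marcks, which gamma protocadherins act on in dendrites (-0.18 ± 0.03, adjusted p = 0.0025). Of the 11 tested non-clustered protocadherins, which lie outside the array and include Pcdh1 of the genes on its gamma side, 3 were lower and 0 higher, with a median of -0.11. These were Pcdh17 at -0.26 ± 0.05, Pcdh19 at -0.21 ± 0.04 and Pcdh9 at -0.18 ± 0.05 (adjusted p = 0.0043, 0.0050 and 0.018).

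Some cell type markers were called between the ages, where 6.09% of all genes were called higher and 4.89% lower. In lists this short a single call says little about the cell type. The 4 hemoglobin genes summed to 82.7 to 109.7 CPM in young and 120.7 to 392.4 CPM in old brains, and 2 of the 4 were higher. Endothelial markers summed to 160.9 to 168.6 and 189.9 to 232.6 CPM, with 3 of 4 higher. The other endothelial marker, Cldn5, was not called (-0.14 ± 0.10, adjusted p = 0.40). Neuron markers had 0 of 8 higher and 1 lower (Map2, -0.14 ± 0.04, adjusted p = 0.026), and immature neuron markers 1 of 5 lower (Sox11). Oligodendrocyte markers had 2 of 6 higher and 1 lower, oligodendrocyte precursor markers 1 of 4 lower (Gpr17), and microglia markers 1 of 5 higher (Tmem119). None of the 6 astrocyte, 5 choroid plexus, 4 cerebellum, 4 olfactory bulb or 3 serotonergic markers was called. Olfactory bulb markers, which report how much of that region a dissection holds, summed to 14.9 to 59.2 CPM in young and 12.7 to 126.4 CPM in old brains, and Tbx21 was at 0 in young brain 1.

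With the mean level of a marker list as a covariate, in fits added after seeing the data, 19 members were higher for the olfactory bulb, 21 for the neuron and 13 for the blood markers, against 21 without a covariate. The mean of the blood markers did not overlap between the ages, at 3.93 to 4.45 log2 CPM in young and 4.46 to 6.24 in old brains. Taken singly, 2 of the 4 blood genes were without overlap. Calls over all genes fell from 2031 to 475 in the fit with the blood covariate. The median log2 fold change of the beta isoforms was then 0.42 and that of the gamma A isoforms 0.46, so the order of these groups turned. No part of the other marker lists in the member values was tested.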

How the data were processed

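The authors trimmed reads with Trimmomatic, aligned them to GRCm38 (mm10 in the submitters' notes) with STAR and summed reads with 1 genomic match over exons (featureCounts). Their deposited table holds whole-number counts for each gene and no ERCC rows. The deposited TPM table rests on gene lengths, which equal the whole annotated exon length for the members. The deposited normalized counts were not used, and 1 column per table matched no listed sample and was left out. Symbols and positions came from GENCODE M21, which named 48970 of 49315 IDs and need not be the authors' release.

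Genes were kept with filterByExpr (minimum count 10, minimum total 15), scaled by TMM and tested with edgeR 4.0.16 (R 4.3.3), old against young, by the robust quasi-likelihood test with Benjamini-Hochberg adjustment over 18492 genes. The biological coefficient of variation was 6.71%. Log2 fold changes are old minus young, with SEs from the test statistic. Libraries of one age differed by more than sampling noise, with chi-square over degrees of freedom from 4.04 up. On simulated counts for these 18492 genes with 200 changed by a log2 fold change of 1, 91.5% of the changed genes were called, 6.15% of calls were unchanged genes, and 0 genes were called with none changed.

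The strand setting of the counting is not given in the sources used here. Of 434 genes lying wholly within exons of genes on the other strand 5.76% had a count, against 72.5% of genes with exon bases of their own, so overlaps were mostly left uncounted.

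Values per mouse are given for the 20 members with the lowest p, the C-type isoforms, and the highest and lowest tested member per kb of each alternate group. Pcdhb7, Pcdhb10, Pcdhb15, Pcdha7, Pcdhgb1, Pcdhgb2, Pcdhgb4 and Pcdhga4 were chosen after their values were seen. Members and gene lists were chosen with earlier results of these data known. Alternatives were DESeq2's and upper-quartile factors, DESeq2's Wald test (DESeq2 1.42.0), other filters, limma 3.58.1 on log2(TPM + 1) and log2(TPM + 0.1), a replicate block, each mouse left out, other thresholds and marker covariates.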

Additional observations from a re-analysis of the deposited data

Results flagged for a closer look

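In 11 of 114 combinations of a member and an age, a single brain stood apart from the rest of its group, as measured by its gap to the nearest brain divided by the range of the group. By chance about 1 in 20 combinations, or 5.7, would be picked out. Among old brains, Pcdhga3 in replicate 5 (ratio 0.99) was at 18.5 CPM against 16.6 in each of the others, Pcdhb3 in replicate 1 (0.842) at 8.61 against 11.6 to 12.3, Pcdhgb5 in replicate 1 (0.839) at 8.18 against 9.98 to 10.4, Pcdhga11 in replicate 1 (0.855) at 15.9 against 13.5 to 13.8, and Pcdhb17 in replicate 4 (0.855) at 16.7 against 15.7 to 15.9. Old replicate 1 thus accounted for 3 of the 5, on the low side in Pcdhb3 and Pcdhgb5 and on the high side in Pcdhga11.

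Among young brains, Pcdhb14 in replicate 1 (0.857) was at 8.47 CPM against 10.01 to 10.3, Pcdhb11 in replicate 3 (0.797) at 3.50 against 4.64 to 4.98, Pcdha9 in replicate 5 (0.779) at 4.02 against 5.98 to 6.69, and Pcdhga10 in replicate 4 (0.789) at 0.676 against 1.24 to 1.44. On the high side were Pcdhb2 in replicate 2 (0.795) at 3.37 against 2.72 to 2.84 CPM and Pcdhga12 in replicate 2 (0.734) at 28.3 against 21.7 to 23.3. In Pcdhb2, Pcdhb3, Pcdhb11, Pcdhb14 and Pcdhga3 the brain that stood apart did not bring the ages into overlap.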

How the results depend on the processing

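With other size factors, DESeq2's Wald test or other filters on low counts, 21 to 24 members were higher and 1 or 2 lower, Pcdhgc5 being the second without a filter (adjusted p = 0.034). With limma on log2(TPM + 1), log2(TPM + 0.1) and unfiltered log2(TPM + 1), 7, 8 and 0 members were higher and 0 lower, from 594, 600 and 36 calls over all genes in place of 2031. Of the 36 unfiltered calls 94.4% were higher, against 55.4% in the edgeR fit, and the TPM scale shifted the median of all genes to -0.14 (+ 1) and -0.16 (+ 0.1). On these TPM scales the group medians were -0.036, -0.068 and -0.036 for alpha, 0.31, 0.44 and 0.31 for beta, 0.23, 0.27 and 0.23 for gamma A, 0.14, 0.15 and 0.14 for gamma B, and -0.31, -0.32 and -0.31 for C-type isoforms. At an adjusted p under 0.01, 18 members were higher and 0 lower (873 genes), and with the fold threshold 15 and 0 (463 genes). The blood covariate left 13 higher and 0 lower (475 genes), with medians of 0.42 for beta and -0.067 for C-type isoforms, and the olfactory bulb covariate gave a C-type median of -0.23.

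Leaving out each mouse gave 18 to 22 members higher, 0 to 1 lower and 1516 to 2034 genes called. Medians then ran from 0.48 to 0.72 for beta, 0.38 to 0.46 for gamma A, 0.02 to 0.15 for alpha, 0.26 to 0.34 for gamma B and -0.22 to -0.13 for C-type isoforms. Over 21 alternatives for each of 30 named members, 530 of 630 values kept direction and side of the threshold, 85 lost the call, 3 gained it and 12 changed sign. Apart from the block, the sign changes were Pcdhgc4 with the blood covariate (0.039), Pcdha12 with the blood covariate (0.15) and Pcdhga11 on the TPM scales (-0.13, -0.14 and -0.13) and with the olfactory bulb covariate (-0.022), besides leaving out young replicate 5 for Pcdhgc4, young replicate 2 for Pcdha12, and young replicate 4, young replicate 5 or old replicate 1 for Pcdhga11. With each mouse left out, these members ran from -0.087 to 0.0021, from -0.12 to 0.014 and from -0.035 to 0.080. The TPM values of Pcdhga11 are close to the shift of the all-gene median on those scales. The cause of the other sign changes was not tested.

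With the replicate number as a block 22 members were higher, 1 lower and 1828 genes called, and Pcdha12 changed sign (0.011). Deviations of same-numbered young and old libraries had correlations of 0.17, -0.12, 0.09 and -0.02. Those of differently numbered libraries ran from -0.22 to 0.16. So few values cannot exclude a pairing, and the main fit used none.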
